A study of Gallus gallus with 12 samples.

Results

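HD3 erythroblasts were compared with primary fibroblasts over every gene that the authors listed for at least 1 of these cell types. The comparison covered 13855 of the 13889 genes listed anywhere in the series, of which 9899 were listed for both cell types, 404 for HD3 erythroblasts alone and 3552 for fibroblasts alone. HD3 is a chicken erythroblast line, so its replicates represent 1 line, and the fibroblasts were primary chicken cells. Both were labelled wild type, were grown in the same medium with bovine and chicken serum, and had 3 replicates each. The series also holds embryonic red blood cells taken at day 10 (eRBC) and red blood cells of adult hens aged 28 to 38 weeks (aRBC), whose tables listed 1354 and 804 genes. RNA levels came from stranded sequencing of total RNA freed of ribosomal RNA. The labels do not say whether the replicates of a cell type came from separate cultures, so p-values measure the spread between these samples, which may be technical.

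Erythroblasts are immature cells of the red blood cell lineage. They express the genes for heme synthesis, iron uptake, the red cell membrane and, as they mature, the globins, while their nucleus condenses and transcription declines. HD3 cells carry avian erythroblastosis virus, whose oncogenes hold erythroblasts at an immature, dividing stage, so the line is a model of the stage before terminal maturation. Fibroblasts are connective tissue cells that secrete collagens and other matrix proteins and attach to a surface through a contractile actin skeleton. The files give genes by Ensembl number without names, and the gene table used here matched 0 of these numbers. Markers of either cell type, and of other cells that could be present, were therefore not checked, and levels are described by gene number, level, length and listing.

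Values are FPKM, reads on a gene per length of the gene and per size of the library, which the authors then scaled to cell number (scaled FPKM). Libraries were started from equal amounts of RNA, so a difference between the cell types in RNA per cell enters through this scaling and not through the libraries. The factor is not stated. Whole reads recovered from the values gave an estimate of 0.171 to 0.174 for HD3 erythroblasts if their replicates share 1 factor. For fibroblasts they placed the factor at 1. The estimate used for the upper end in HD3 gave 0.974 to 0.979 for fibroblasts, short of 1. Thus 0.171 is a lower bound for HD3, while 0.174 is not an upper limit. The tables were normalized separately by cell type, and each level set across them rests on that factor. Reads on listed genes numbered 9042600 to 19364460 in the HD3 libraries and 8851875 to 23378738 in the fibroblast libraries, with a median of 332 to 577 reads per listed gene in HD3 and 165 to 450 in fibroblasts. HD3 replicate 1 stood apart from HD3 replicates 2 and 3. Its Pearson's r with them across 10303 genes, on log2(scaled FPKM + 1), was 0.8998 and 0.905, against 0.997 between replicates 2 and 3. Fibroblast replicate 2 stood apart likewise, with r of 0.916 and 0.906 against 0.982 between replicates 1 and 3, across 13451 genes. These values describe the libraries and are not tests, since genes are not replicates.

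Per cell on the authors' scale, HD3 erythroblasts held less of nearly every transcript than fibroblasts did. The median listed gene had a scaled FPKM of 2.81, 2.38 and 2.34 in HD3 replicates 1 to 3, against 8.81, 8.64 and 8.49 in fibroblast replicates 1 to 3. The listed genes differ, 10303 for HD3 and 13451 for fibroblasts. Over the genes listed for both, the medians were 2.94, 2.50 and 2.44 in HD3, against 12.03, 12.35 and 11.65 in fibroblasts. A scaled FPKM of 10 or more was reached by 1447, 1156 and 1132 genes in the HD3 replicates, against 6275, 6218 and 6124 genes in the fibroblast replicates. A level of 100 or more was reached by 77, 115 and 111 genes in HD3 and by 537, 592 and 524 genes in fibroblasts. In all of these the groups did not overlap. The HD3 count was 0.680 of the fibroblast count at a level of 1 or more, 0.201 at 10 or more and 0.183 at 100 or more. The two-sided exact permutation p was 0.1 for each of these counts, the smallest that 3 samples against 3 allow, and 0.15 after adjustment over 9 such values. These medians and counts rest on the cell-number factor that the HD3 replicates share, and the p-values hold nothing of its uncertainty. Dividing HD3 values by the lower end of the range for this factor returns them to plain FPKM. A mean plain FPKM of 10 or more was reached by 6504 genes in HD3 and 6327 in fibroblasts. At that level the HD3 count was thus no longer the lower one. At a plain FPKM of 5 or more it still was, with 8363 genes against 8579, and at 1.75 or more with 10303 against 10827. A factor above the lower end could only lower these HD3 counts.

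In how the transcripts were spread over genes, the samples of the cell types overlapped. The 100 highest genes of a sample held 41.2%, 62.3% and 63.8% of its summed scaled FPKM in HD3 replicates 1 to 3, against 44.9%, 49.1% and 48.0% in fibroblasts. The exact permutation p was 0.4. HD3 replicate 1 had a share that was the lowest of the 6 samples, while HD3 replicates 2 and 3 had the highest. Likewise, 50 percent of the sum was held by 256 genes in HD3 replicate 1 and by only 31 and 26 genes in HD3 replicates 2 and 3, against 166, 109 and 126 genes in fibroblasts (exact permutation p of 0.8). Apart from which genes are listed, these measures do not depend on the cell-number factor. Of the 100 genes with the highest means in HD3, 61 were also among the 100 highest in fibroblasts, and of the 1000 highest, 510 were. Among the 100 highest of each cell type, 0 of the HD3 genes were missing from the fibroblast table, while 13 of the fibroblast genes were missing from the HD3 table. The listing cutoff was a scaled FPKM of 0.3 in both tables. On plain FPKM it stands for 1.75 in HD3, at the lower end of the factor range, and for 0.3 in fibroblasts. On that scale a gene goes missing more easily from the HD3 table, so the 0 and the 13 are not on equal terms.

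The comparison of single genes asked which transcripts differ between an erythroid and a non-erythroid cell, per cell and relative to the other genes. Genes listed for both cell types with a mean of at least 1 over the 6 samples, 9442 in all, were tested with limma on log2(scaled FPKM + 1), and a gene was called at an adjusted p under 0.05 and a log2 fold change of at least 1 in size. Per cell, 146 genes (1.55%) were higher and 7408 genes (78.5%) were lower in HD3 erythroblasts, 80.0% of the tested genes in all. The p-values measure spread between replicates and hold nothing of the uncertainty of a cell-number factor that the HD3 replicates share. The median log2 fold change was -1.73. This shift rests on the cell-number factor, and with HD3 values divided by 0.171 the ratio of means of the median gene was 1.33. For a single gene in these bulk samples, fewer cells expressing it and less RNA in each cell cannot be told apart. On the ratio of group means, the median gene was 4.39-fold lower in HD3. The replicates of the groups did not overlap for 8484 of the 9442 genes, of which 243 (2.57%) were higher and 8241 (87.3%) lower in HD3. The interquartile range of log2 fold changes was -2.35 to -1.12, and 513 genes (5.43%) were above 0.

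The split between higher and lower depended on the scaling. After each sample was centred on its median gene, the median log2 fold change was 0.04, and 1375 genes (14.6%) were higher and 1385 genes (14.7%) lower in HD3, 29.2% of the tested genes in all. Near-equal numbers follow from centring on the median gene. With samples scaled to equal sums 1059 genes were higher and 1528 lower in HD3, and with limma voom on the recovered reads 2311 were higher and 1171 lower. The width of the interquartile range was 1.23 per cell and 1.24 after centring. A centred log2 fold change of at least 2 in size was called higher for 394 genes and lower for 411, one of at least 3 for 123 and 128, and one of at least 5 for 12 and 23. Centring raises the HD3 values of every gene relative to fibroblasts, so by construction it moves the fold changes up. The call also needs an adjusted p, which centring can change. All 146 genes higher per cell were also higher after centring, and all 1385 lower after centring were also lower per cell. The largest group, 5974 genes, was lower per cell and not called after centring. A further 1180 genes were not called per cell and higher after centring, and 49 were lower per cell but higher after centring. Divided by the factor of 0.171, which returns the HD3 values to plain FPKM, the ratio of means of the median gene was 1.33. Both this ratio and the voom counts cover only genes listed for both cell types, a selection that leaves out genes low in HD3.

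**Figure D1:**
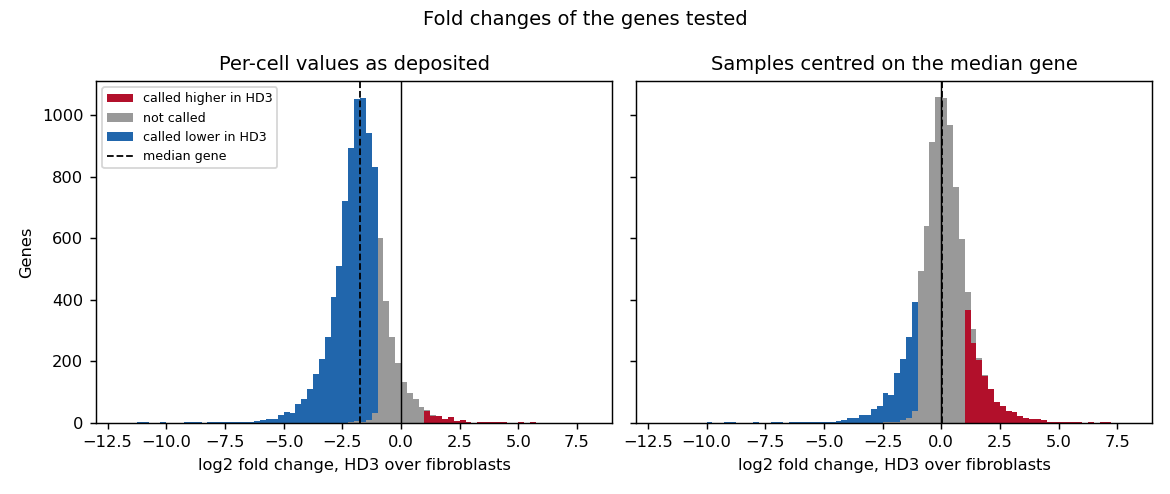
Number of genes (vertical axis) by log2 fold change of HD3 erythroblasts over fibroblasts (horizontal axis, bins of 0.25) for the 9442 genes tested, per cell (left) and with samples centred on their median gene (right), coloured by call. Per cell the dashed median lies at -1.73 and 7408 genes are called lower, while after centring it lies at 0.04 with 1375 genes called higher and 1385 lower.

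The 146 genes higher per cell were higher on the scale least favourable to HD3. Median centring, equal sums and limma voom on the recovered reads all raise the HD3 values relative to it. All 146 were also called higher there, which the scalings favour and which is no separate support. Their median level was 7.77, 9.01 and 8.90 scaled FPKM in HD3 replicates 1 to 3, against 1.25, 1.55 and 1.36 in fibroblast replicates 1 to 3. The ratio of means was 5.10 in the median gene, and it reached 10 or more in 25 genes and 30 or more in 7. The replicates did not overlap for 139 of the 146, which repeats the call that chose them. HD3 means ran from 1.80 to 290, with 69 genes at 10 or more and 3 at 100 or more. In fibroblasts 55 of the 146 had a mean below 1 and thus entered the test through their HD3 values. Together the 146 genes held 3.08%, 2.11% and 2.02% of the summed scaled FPKM in HD3 replicates 1 to 3, against 0.132%, 0.128% and 0.120% in fibroblasts. HD3 replicate 1 differed from the mean of HD3 replicates 2 and 3 by 2-fold or more after centring in 25.3% of the 146, lower in 31 and higher in 6, against 14.3% of all tested genes. Without HD3 replicate 1, 144 genes were called higher per cell, of which 119 were among the 146.

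The genes lower in HD3 under all 4 scalings numbered 1131. Their median level was 1.40, 1.10 and 1.14 scaled FPKM in HD3 replicates 1 to 3, against 28.4, 24.6 and 28.4 in fibroblast replicates 1 to 3. That the samples of the groups did not overlap for any of the 1131 repeats the call that chose them; among all tested genes 87.3% were lower without overlap. In HD3 473 of them had a mean below 1, and the highest HD3 mean among them was 85.7. In fibroblasts their means ran from 4.41 to 4502, and together they held 18.1%, 14.0% and 17.5% of the fibroblast sum, against 3.43%, 2.07% and 2.02% of the HD3 sum. Among the 1385 genes lower after centring, the per-cell ratio of means was at least 30-fold lower in HD3 for 280 genes, at least 100-fold lower for 55 and at least 1000-fold lower for 4. Fibroblast replicate 2 differed from the mean of fibroblast replicates 1 and 3 in these genes by a median of -0.202 on the centred log2 scale. It was lower by 2-fold or more in 150 of the 1385 and higher in 34, 13.3% in all. Over all 9442 tested genes the median was 0.040, with 474 lower and 397 higher by 2-fold or more, 9.22% in all.

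**Figure D2:**
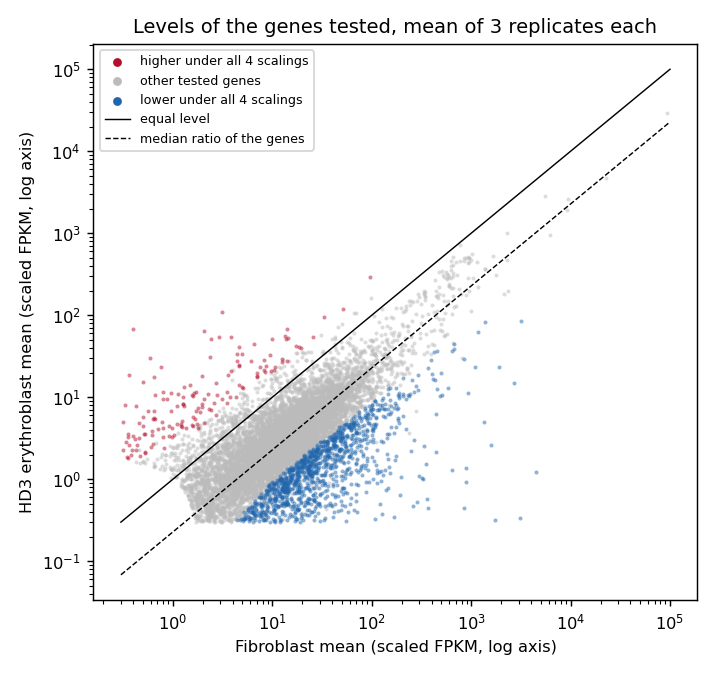
Mean scaled FPKM of HD3 erythroblasts (vertical, log axis) against fibroblasts (horizontal, log axis) for the 9442 genes tested, each the mean of 3 replicates. The 146 genes higher under all 4 scalings (red) lie above the line of equal level, the 1131 lower under all 4 (blue) lie below the dashed line of the median ratio, and the lower edge at 0.3 is the listing cutoff.

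ENSGALG00000003212 and ENSGALG00000021627 had the largest increases in per-cell log2 fold change among called genes whose replicates did not overlap. Genes listed for HD3 alone have no fold change and were not ranked. ENSGALG00000003212, with a recovered length of 1961 bp, was at 82.8, 59.0 and 60.6 scaled FPKM in HD3 replicates 1 to 3, against 0.450, 0.319 and 0.421 in fibroblast replicates 1 to 3. The HD3 values rest on 8582 to 13444 reads and the fibroblast values on 8 to 16 reads, so the gene was nearly at the listing cutoff in every fibroblast library. Its log2 fold change was 5.60 with a standard error of 0.187 per cell (limma adjusted p 2.15e-06) and 7.24 with a standard error of 0.154 after centring (limma adjusted p 3.32e-06). It ranked 135 of the genes listed for HD3 and 13037 of those listed for fibroblasts. In eRBC it averaged 11.5 ± 2.95 (SD, n = 3), and it was not listed for aRBC.

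ENSGALG00000021627, with a recovered length of 743 bp, was at 85.6, 116 and 130 scaled FPKM in HD3 replicates 1 to 3, against 1.04, 7.06 and 1.18 in fibroblast replicates 1 to 3. All HD3 samples were far above the fibroblast samples, among which replicate 2 was the high one. The fibroblast mean was 3.09 ± 3.44 (SD, n = 3) and fell to 1.11 without replicate 2. The log2 fold change was 5.06 with a standard error of 0.516 per cell (limma adjusted p 5.58e-05), and it was 5.70 without fibroblast replicate 2. This gene was not listed for eRBC and was listed at 2.31, 3.05 and 2.40 for aRBC.

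ENSGALG00000026383 and ENSGALG00000003578 had the strongest decreases among called genes whose replicates did not overlap. Genes listed for 1 cell type only were not part of this ranking. ENSGALG00000026383, with a recovered length of 733 bp, was at 0.155, 0.490 and 0.374 scaled FPKM in HD3 replicates 1 to 3, against 2307, 4853 and 2182 in fibroblast replicates 1 to 3. It ranked 10 among the genes listed for fibroblasts and 10129 among those listed for HD3, where it rests on 6, 40 and 31 reads. Its log2 fold change was -11.09 with a standard error of 0.342 per cell (limma adjusted p 2.15e-06) and -9.84 with a standard error of 0.360 after centring (limma adjusted p 9.77e-06). In eRBC it was at 0.440, 0.593 and 0.364, near the cutoff, and in aRBC at 1.92, 1.07 and 1.94. The cell-number factors of eRBC and aRBC were not estimated. Levels of the named genes in eRBC and aRBC can therefore not be set against those in HD3 on plain FPKM.

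ENSGALG00000003578, a longer gene with a recovered length of 9525 bp, was at 1.59, 0.978 and 1.16 scaled FPKM in HD3 replicates 1 to 3, against 5329, 1624 and 6554 in fibroblast replicates 1 to 3. Fibroblast replicate 2 was the low one here and the high one for ENSGALG00000026383. The gene took 1209767 reads in fibroblast replicate 3 and 1247 in HD3 replicate 3. Its log2 fold change was -10.75 with a standard error of 0.512 per cell (limma adjusted p 4.34e-06) and -9.05 with a standard error of 0.524 after centring (limma adjusted p 4.68e-05). It was not listed for eRBC and was at 0.699, 0.280 and 0.550 in aRBC. Each of these 4 genes was called in the same direction under all 14 alternatives to the per-cell fit and all 10 to the centred fit, with limma adjusted p of at most 0.000847. The genes were picked for their size in the same libraries that the alternatives reuse, so their calls are no separate support. Sizes moved with the scaling and pseudocount. The log2 fold change ran from 5.40 to 9.92 for ENSGALG00000003212, with 9.92 from voom, and from 4.71 to 8.03 for ENSGALG00000021627. It ran from -12.77 to -9.84 for ENSGALG00000026383 and from -11.51 to -9.05 for ENSGALG00000003578.

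**Figure D3:**
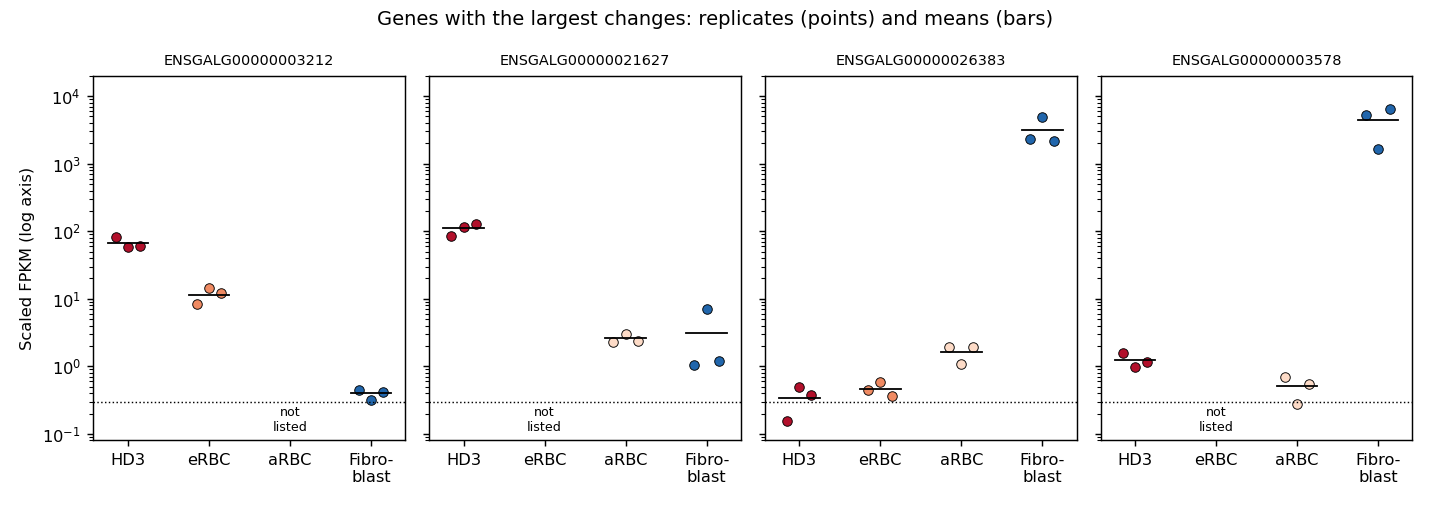
Scaled FPKM (log axis) of the 2 genes with the largest increases and the 2 with the strongest decreases in HD3 erythroblasts among called genes, by replicate (points) with group means (bars) in HD3, eRBC, aRBC and fibroblasts. The dotted line is the listing cutoff of 0.3, and for each gene all 3 HD3 points lie on one side of all 3 fibroblast points.

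Genes listed for 1 cell type only carry a bound in place of a fold change, since a missing gene is known only to average below 0.3 scaled FPKM. The 404 genes listed for HD3 alone were mostly low, with a median mean of 0.687, 133 genes at 1 or more, 10 at 10 or more and a highest mean of 23.3. The median of these genes was 0.607, 0.748 and 0.704 in HD3 replicates 1 to 3. The 3552 genes listed for fibroblasts alone reached far higher. Their median mean was 1.57, with 2190 genes at 1 or more, 632 at 10 or more, 100 at 100 or more and 5 at 1000 or more. The highest averaged 3913, a per-cell level at least 13042-fold lower in HD3. These genes held 11.4%, 8.57% and 10.9% of the summed scaled FPKM in fibroblast replicates 1 to 3, whereas the HD3-only genes held 0.660%, 0.468% and 0.441% of the sum in HD3 replicates 1 to 3.

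**Figure D4:**
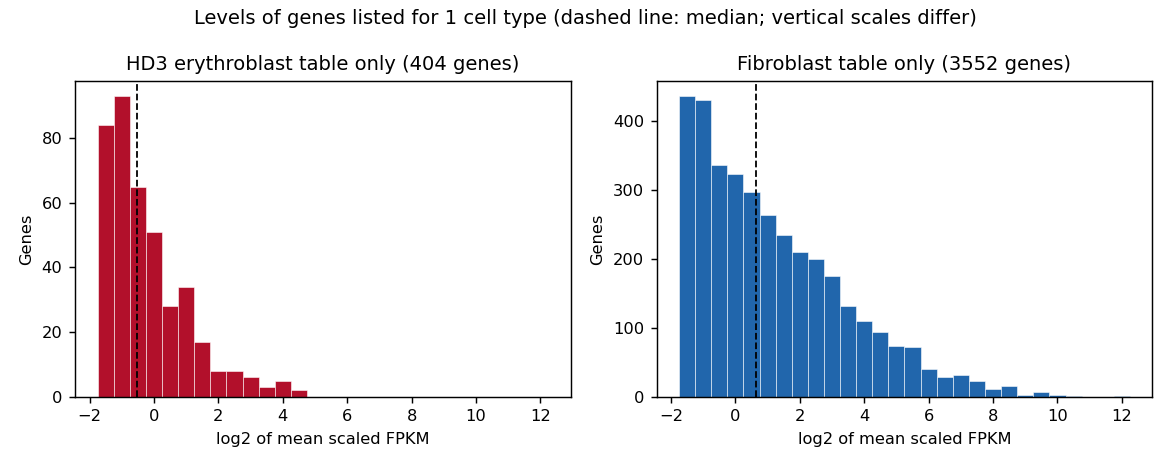
Number of genes (vertical axis, scales differ between panels) by log2 of mean scaled FPKM (horizontal axis, common range) for the 404 genes listed for HD3 erythroblasts alone (left) and the 3552 listed for fibroblasts alone (right). The dashed medians correspond to 0.687 and 1.57, and only the fibroblast genes extend above 100.

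The numbers of genes listed for 1 cell type depend on the cutoff, which is not the same on plain FPKM. A scaled value of 0.3 stands for a plain FPKM of 1.75 in HD3 erythroblasts, at the factor of 0.171, and of 0.3 in fibroblasts. With a plain FPKM of 1.75 asked of both, 10303 genes were listed for HD3 and 10827 for fibroblasts. Of these 9125 were shared, 88.6% of the HD3 genes and 84.3% of the fibroblast genes, while 1178 were HD3-only and 1702 fibroblast-only. At a plain FPKM of 10, the order turned to 1630 HD3-only and 1453 fibroblast-only genes. Any gene in the HD3 table is therefore well above the fibroblast cutoff on plain FPKM, and of the 404 HD3-only genes 267 were at least 10-fold above it. Of the 3552 fibroblast-only genes, 1196 were at least 2-fold and 431 at least 10-fold above the HD3 cutoff of 1.75. Those below 1.75 have no known direction on plain FPKM. Those above 1.75 by less than 2-fold were higher in fibroblasts, and only the lower bound of their fold is under 2.

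The recovered gene length varied with the calls at its short end. Of 419 tested genes of up to 200 bp, 27.2% were higher and 5.73% lower in HD3 after centring, against 14.6% and 14.7% of all tested genes, and only 47.7% were lower per cell, against 78.5%. These shares were not matched for level. The median fibroblast mean was 5.63 for the short genes and 13.2 for all tested genes. Genes called lower after centring had fibroblast means of 4.41 or more. The listing cutoff removes the genes lowest in HD3, and the 1 added before the log2 shrinks the fold changes of low genes. The median centred log2 difference of these short genes from the fibroblast mean was 0.04, 0.83 and 0.85 in HD3 replicates 1 to 3, so it was seen in replicates 2 and 3 and not in replicate 1. Short genes rest on few reads, with a median of 3 reads in the sample where each gene had fewest. Their share of all reads on listed genes was 0.125%, 0.257% and 0.250% in HD3 replicates 1 to 3, against 0.133%, 0.154% and 0.210% in fibroblasts, and the groups overlapped (exact permutation p of 0.4). Over the 5 longer classes the share lower after centring went up with length, through 11.3%, 12.5%, 13.9% and 15.5% to 17.4% of genes over 4000 bp. Genes over 4000 bp took 24.4%, 22.0% and 21.2% of the reads in HD3 replicates 1 to 3, against 36.0%, 26.8% and 37.2% in fibroblast replicates 1 to 3. The groups did not overlap, with fibroblast replicate 2 nearest to HD3, and the exact permutation p was 0.1. ENSGALG00000003578 is one of these long genes, with 460342, 371442 and 1209767 reads in fibroblast replicates 1 to 3. In HD3 replicates 1 to 3 it had 798, 1038 and 1247 reads. Without the 10 highest genes of each sample, long genes took 26.61%, 25.3% and 24.75% of the reads in HD3. In fibroblasts they then took 33.89%, 29.47% and 36.55%, closer to HD3 but still without overlap.

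**Figure D5:**
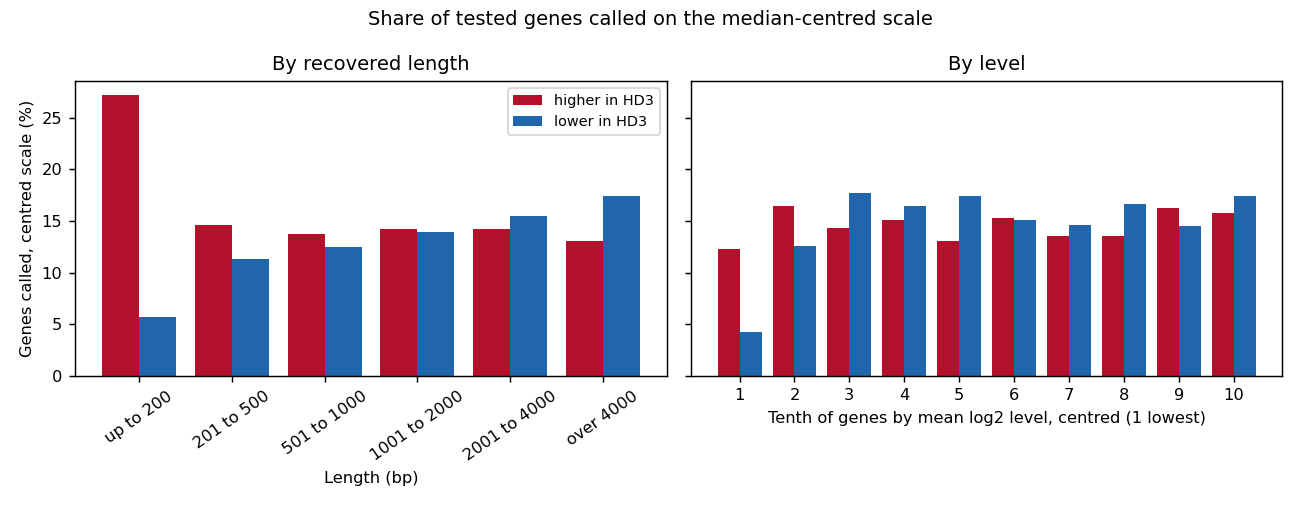
Percent of tested genes (vertical axis) called higher (red) or lower (blue) in HD3 erythroblasts after centring, by recovered length in bp (left) and by 10 equal classes of the mean centred log2 level (right). Genes of up to 200 bp stand at 27.2% higher and 5.73% lower, and the lowest class by level at 12.3% higher and 4.23% lower.

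The calls were also counted by level. With genes ranked by their mean centred log2 level, the share called higher ran from 12.3% to 16.5% over 10 equal classes. The share called lower was 4.23% in the lowest class and 12.6% to 17.7% in the others. Ranked instead by mean scaled FPKM, which fibroblasts dominate, the share called lower after centring went from 0% in the lowest class to 33.0% in the highest, so that gradient depends on the ranking. The 0% follows from the listing cutoff together with the 1 added before the log2, which shrinks the fold changes of low genes. Means in that class were at most 2.21 with an HD3 mean of at least 0.3, while genes lower after centring had fibroblast means of 4.41 or more. Under either ranking, the cutoff removes the genes lowest in HD3, which limits the share called lower among low genes. Across the 9442 genes, group means of the cell types on the log2 scale had a Pearson's r of 0.652 and a Spearman's rho of 0.634, given as a description because genes are not independent and values share their libraries.

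The genes that differed between HD3 erythroblasts and fibroblasts were looked up among those listed for circulating red blood cells, which are later stages of the HD3 lineage. Of the 146 genes higher per cell in HD3, 44 (30.1%) were listed for eRBC and 14 (9.59%) for aRBC, against 13.8% and 7.90% of all tested genes. Of the 1131 genes lower under all 4 scalings, 6.72% were listed for eRBC and 5.39% for aRBC, below the shares of all tested genes. Listing in red blood cells moved with the HD3 level of a gene, so these shares were also read within levels. Among tested genes with an HD3 mean of 10 to 30, 45.5% of the 44 genes higher in HD3 were listed for eRBC, against 41.4% of all 959. Between 3 and 10 it was 16.1% of 62 against 15.6% of 3304, and at 30 or more it was 52.0% of 25 against 73.8% of 301. At 1 to 3 it was 1 of 15 genes against 4.38% of 3262. The eRBC share without regard to level, 30.1% against 13.8%, was thus not matched within levels. There it was slightly above all tested genes under 30 and below them at 30 or more. For aRBC the genes higher in HD3 were below all tested genes at each level that held any of them. Their aRBC share was 3.23% against 7.6% at 3 to 10, and 15.9% against 16.3% at 10 to 30. At 1 to 3 it was 0 of 15 genes against 4.38%, and at 30 or more 5 of 25 genes against 50.5%. Their higher aRBC share without regard to level was thus not seen within levels. The 1131 lower genes were mostly low in HD3, and within levels their shares were not uniformly below those of all tested genes. For eRBC they were 2.75% of 473 against 1.49% of 1616 at an HD3 mean under 1, and 6.48% of 432 against 4.38% of 3262 at 1 to 3. Between 3 and 10 they were 11.9% of 185 against 15.6%, between 10 and 30 they were 24.2% of 33 against 41.4%, and at 30 or more 62.5% of 8 against 73.8%. For aRBC the lower genes went both ways too. Their shares were 2.54% against 2.72% under 1, 6.02% against 4.38% at 1 to 3, and 7.03% against 7.6% at 3 to 10. At 10 to 30 they were 9.09% against 16.3%, and at 30 or more 87.5% of only 8 genes against 50.5%. These shares within levels are a description, and no test of their differences was made. Of the genes in only 1 of the tables, 13 of the 404 HD3-only genes (3.22%) were listed for eRBC and 11 for aRBC, against 17 and 19 of the 3552 fibroblast-only genes (0.479% and 0.535%). Both classes were below the genes listed for both cell types, of which 13.2% were listed for eRBC and 7.57% for aRBC. The classes differ in level, and these shares were not matched for it. A gene absent from the red blood cell tables is below their cutoff and is not shown to be silent there.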

How the data were processed

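Of the 12 samples of the series, 6 were used. The authors deposited a table of FPKM values per cell type; per the table names these were scaled to cell number, by a factor that is not given in the sources used here. The submitters' processing notes name STAR 2.7.2b, featureCounts and the build GRCg6a. Each table holds genes whose mean of 3 replicates is 0.3 or more; 0 per-sample columns were without a sample. The 25635 genes of the RefSeq table (GRCg7b) carry an Ensembl number for 0 of them, so no gene names, sequences or gene lists by function were used. Among called genes, the 2 that rose most and the 2 that fell most without overlap of replicates are named.

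Whole reads and lengths were recovered from ratios of values between samples and genes. All values came out whole within 0.01 reads, but lengths were chosen to make them so. Lengths sharing a divisor with the reads come out too short, so each is a lower estimate.

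Log2(FPKM + 1) was fitted with limma 3.58.1 (R 4.3.3) with a mean-variance trend over these samples and Benjamini-Hochberg adjustment, two-sided. Fold changes on this scale understate those of low genes. Centred values were divided by the sample's median over the tested genes and multiplied by the mean of these medians. The fit was tested on simulated data. Single values were tested with exact permutation tests (scipy 1.17.1). Values were compared across separately normalized tables because the comparison is between them. Alternatives were other pseudocounts, filters and scalings, a replicate block, each library left out, and voom on reads. The genes compared and the tests were chosen with earlier results of these data known.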

Additional observations from a re-analysis of the deposited data

How the results depend on the processing

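The numbers of genes called depended on the scaling more than on any library. With samples centred on their median gene 2760 genes changed, 1375 higher and 1385 lower. With equal sums 2587 changed, 1059 higher and 1528 lower, and with voom on recovered reads 3482 changed, 2311 higher and 1171 lower. With all genes of either table and missing ones set to 0.3, 223 genes were higher per cell. Leaving out each library in turn gave 7357 to 7568 changed genes per cell, 133 to 161 higher and 7196 to 7435 lower, and 2356 to 3181 after centring. Leaving out HD3 replicate 1 and fibroblast replicate 2 together, a choice made after seeing the data, yielded 173 higher and 7315 lower genes per cell, and 1753 higher and 1688 lower after centring. The replicate numbers are not said to mark shared batches, and deviations of same-numbered samples had correlations of -0.104, -0.137 and 0.111. With the replicate block 7582 genes changed per cell and 2813 after centring, so it changed no statement. Over genes in both tables, HD3 minus fibroblasts was -352953 for the sum, -9.39 for the median, and -1727, -4357 and -354 for genes at 1, 10 and 100 or more. With each sample's 10 highest genes removed, the sum differed by -288474. The number of genes holding 50 percent of the sum, 29.3 fewer in HD3, turned to 7.33 more over genes in both tables and to 7.33 and 9.83 more without HD3 replicates 2 and 3, and it was -105.2 without HD3 replicate 1. Genes listed for 1 cell type numbered 133 for HD3 and 2190 for fibroblasts at a mean of 1 or more. At plain FPKM cutoffs of 1.75, 2, 3, 5 and 10 in both tables, the last 4 chosen after seeing the data, HD3-only genes numbered 1178, 1199, 1255, 1368 and 1630 and fibroblast-only genes 1702, 1689, 1659, 1584 and 1453. The cause of these moves was not tested, except that centring and equal sums remove the shared shift by construction. Counts by function were not run, since genes have no names here. Genes at few reads, such as the short ones, are limited by depth.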
